A study of Mus musculus with 12 samples.

Results

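The interleukin-6 (IL6) family was described in cultured adventitial fibroblasts of the mouse aorta through 10 genes, taken by name from the 54352 gene symbols counted in these libraries. They comprise 4 ligands (Il6, Il11, Lif and Clcf1), 5 receptor chains (Il6ra, Il11ra1, Il6st, Lifr and Osmr) and 1 feedback inhibitor (Socs3). All 10 were measured and all 10 passed the filter on low counts in every comparison. No measured value of theirs entered the choice, although the choice was made with earlier results of these data known.

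RNA was sequenced from 12 libraries in 4 groups of 3. Ascending and descending fibroblasts came from the adventitia, the outer layer of the vessel wall, of wild-type C57Bl/6 mice aged 14 weeks per the labels, while the study's methods give a younger age. Each site was cultured with the solute alone (control) or with mouse TGFβ at 10 ng/mL for 48 h, and both groups of a site otherwise shared strain, genotype, age and medium. The labels name no pooling and do not say whether the 3 libraries of a group are cultures of separate animals, so p-values measure the spread between these libraries, which may be technical.

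Cytokines of this family signal through shared receptor chains. IL6 and IL11 bind their own receptor, IL6RA or IL11RA1, and then engage gp130, the protein encoded by Il6st, whereas LIF engages gp130 together with LIFR, and oncostatin M can engage gp130 together with OSMR. Receptor engagement activates JAK kinases and STAT3, and SOCS3, itself a STAT3 target, binds gp130 and restrains the signal. In fibroblasts, IL6 and IL11 are known as secreted products of cells exposed to TGFβ.

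Read totals ran from 16250126 to 23892943 per library. The descending control replicate 3 stood apart from the others. It had reads for 13031 genes against 19337 to 20931 in the other 11 libraries, 11.02% of its reads were mitochondrial against 0.703% to 1.03%, and the biological coefficient of variation of the descending control group was 63.3% with it and 4.82% without it. For the 10 genes, calls that rest on this library are therefore given with and without it. Summed markers of fibroblasts (8 genes) lay between 14317 and 26183 normalized CPM (read counts scaled to a common library size), those of endothelial cells (6 genes) between 0 and 2.20 and those of lymphocytes (5 genes) between 0 and 0.243, and Tie1, Cd3e and Cd3d had no read in any library. Smooth muscle markers (5 genes) summed to between 138 and 342 CPM and mesothelial markers (4 genes) to between 6.89 and 42.7 CPM.

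In ascending fibroblasts treated with TGFβ, Il6, Lif and Il11 rose by 5.14-fold or more, Il6ra and Lifr fell, and Il6st, the shared chain, fell by a smaller factor. All 10 genes passed the quasi-likelihood test of edgeR at a Benjamini-Hochberg adjusted p under 0.05, the 4 ligands and Il11ra1 higher and Il6ra, Il6st, Lifr, Osmr and Socs3 lower. The same test called 55.8% of all genes in that comparison, 28.2% as higher and 27.6% as lower, so that calls were common there. In a single fit of all 12 libraries, which called 16% of all genes, 6 of the 10 passed, and Clcf1, Il11ra1, Osmr and Socs3 did not. In descending fibroblasts 5 of the 10 passed, Il6 and Il11 higher and Il6ra, Il6st and Lifr lower, against 8.07% of all genes (3.59% higher and 4.48% lower). Without the descending control replicate 3, 9 of the 10 passed, 4 higher and 5 lower, against 52.9% of all genes (26.6% higher and 26.3% lower). In RNA of whole cultures, fewer cells of a type and less RNA per cell cannot be told apart.

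**Figure D1:**
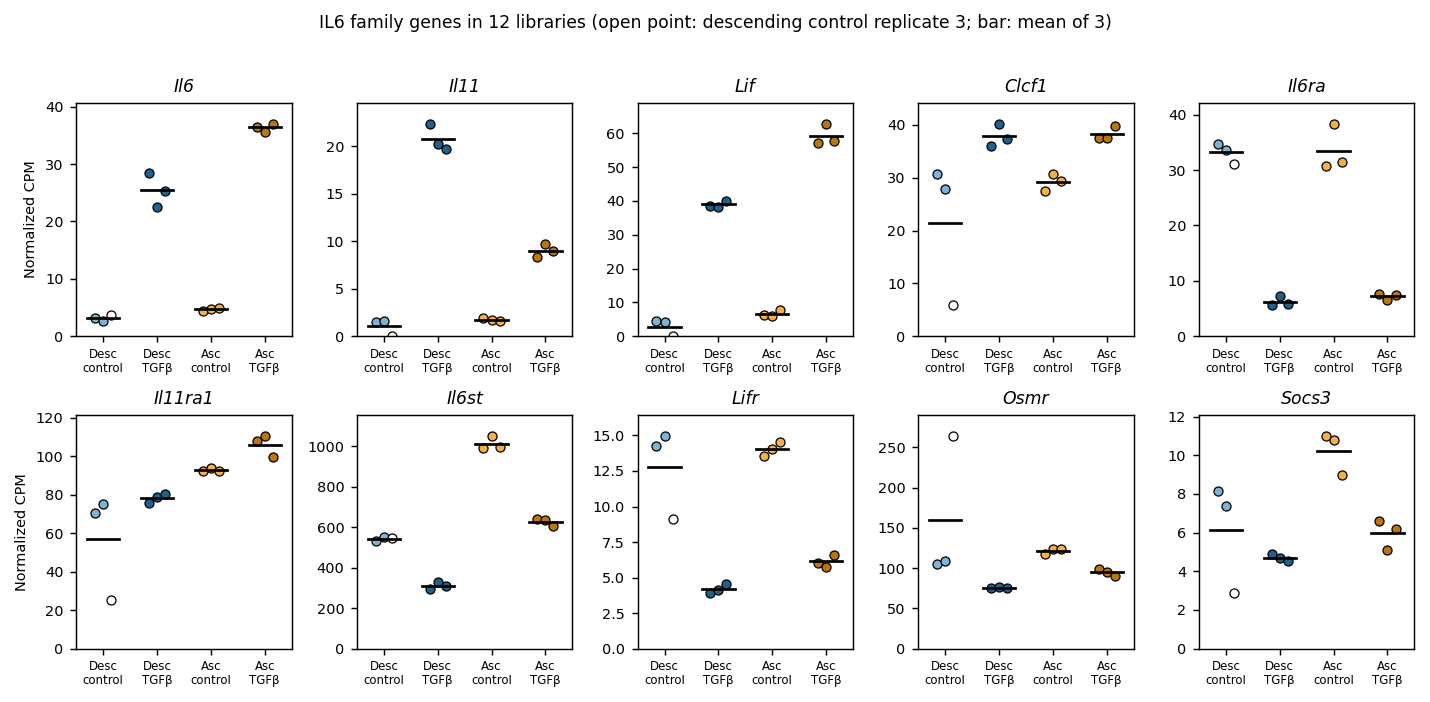
Normalized CPM of the 10 IL6 family genes in each of the 12 libraries, by site and treatment, with a bar at the mean of 3 and an open point for the descending control replicate 3. Il6, Il11 and Lif lie higher in every TGFβ library than in any control library, Il6ra and Lifr lie lower, and the open point leaves its group for 7 of the 10 genes.

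Il6, the founding cytokine of the family, read 4.47, 4.74 and 4.87 CPM in the ascending controls and 36.5, 35.7 and 37.0 CPM with TGFβ. In descending fibroblasts its control level was 3.23, 2.60 and 3.72 CPM and its TGFβ level 28.5, 22.5 and 25.2 CPM. All 6 TGFβ libraries stood above all 6 controls, and the descending control replicate 3 lay close to the other controls of its group. Il6 rose 7.73-fold in ascending fibroblasts, 2.95 on the log2 scale (SE 0.08, n = 3 against 3, adjusted p = 7.58e-15, edgeR's quasi-likelihood test). It rose 7.95-fold in descending fibroblasts, 2.99 on the log2 scale (SE 0.21, adjusted p = 0.0017, edgeR's quasi-likelihood test), and the value without the descending control replicate 3 was 3.12 (SE 0.14). Both calls held under all 12 alternatives.

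Lif, the ligand of LIFR, was measured at 6.26, 5.99 and 7.69 CPM in the ascending controls and at 57.1, 62.8 and 57.7 CPM with TGFβ. The descending controls read 4.47, 4.16 and 0 CPM, the last in replicate 3, and the descending TGFβ libraries 38.6, 38.2 and 39.98 CPM. The groups did not overlap at either site, and in CPM the ascending TGFβ libraries held the highest Lif levels of the series. The rise was 8.88-fold in ascending fibroblasts, 3.15 on the log2 scale (SE 0.08, adjusted p = 4.57e-15, edgeR's quasi-likelihood test). In descending fibroblasts the log2 fold change was 3.71 (SE 1.05) and did not pass edgeR's quasi-likelihood test (adjusted p = 0.097). Replicate 3 had no Lif read where replicates 1 and 2 had 115 and 96, and a count of 0 allows up to 3 reads or 0.207 CPM in that library, counting error only. Without it Lif rose 9.01-fold, 3.17 on the log2 scale (SE 0.10). Over all 12 alternatives its adjusted p in this comparison ran from 4.7e-21 to 0.31.

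Il11, which signals through IL11RA1 and gp130, was low in every control library: 1.91, 1.70 and 1.61 CPM in ascending and 1.48, 1.65 and 0 CPM in descending fibroblasts. With TGFβ it reached 8.35, 9.69 and 9.01 CPM in ascending and 22.3, 20.3 and 19.7 CPM in descending fibroblasts. It was the only ligand of the 4 whose TGFβ level was higher at the descending site, with no overlap between the sites. The ascending rise was 5.14-fold, 2.36 on the log2 scale (SE 0.16, adjusted p = 2.25e-09, edgeR's quasi-likelihood test). In descending fibroblasts the fitted log2 fold change was 4.25 (SE 0.94, adjusted p = 0.0492, edgeR's quasi-likelihood test), and without replicate 3, where Il11 had 0 reads, the rise was 13.3-fold, 3.73 on the log2 scale (SE 0.15). The adjusted p over the 12 alternatives ran from 1.01e-18 to 0.214, since leaving out any other library of this comparison ended the call and left the fitted log2 fold change at 4.22 or above.

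Clcf1, a ligand of the CNTF receptor complex, moved least among the ligands in ascending fibroblasts. It read 27.4, 30.8 and 29.4 CPM in the ascending controls and 37.5, 37.5 and 39.9 CPM with TGFβ, without overlap. The descending libraries read 30.8, 27.9 and 5.93 CPM in control and 36.0, 40.2 and 37.3 CPM with TGFβ, and again the groups did not overlap, with replicate 3 far below the other controls. Clcf1 rose 1.31-fold in ascending fibroblasts, 0.39 on the log2 scale (SE 0.06, adjusted p = 2.77e-05, edgeR's quasi-likelihood test). The descending value was 0.80 (SE 0.56, adjusted p = 0.441, edgeR's quasi-likelihood test) with replicate 3 and 0.37 (SE 0.08) without it, where it passed. Of its exon sequence, 6.77% of the 50-base stretches also occur in another gene, which overlaps it on the same strand.

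Il6 lies on chromosome 5 (chr5:30013114-30019981, plus strand, GRCm38), Il11 on chromosome 7 (chr7:4772373-4782859, minus strand), Lif on chromosome 11 (chr11:4257557-4272514, plus strand) and Clcf1 on chromosome 19 (chr19:4214238-4223490, plus strand), all of them protein-coding genes in GENCODE. The 250 bases before the transcription start are printed here for the 3 ligands that rose most, for Il6ra, the receptor chain that fell most, and for Socs3. The sequences precede RefSeq starts, build GRCm38.p6, where windows were at hand for 9 of the 10 genes and Clcf1 was missing. The start used for Socs3 lies 85 bases from the nearest GENCODE start, so that its window falls within the GENCODE span of the gene. For Lif the distance is 11 bases. Capitals mark matches, on either strand, to a SMAD box (CAGAC), an AP-1 element (TGANTCA), a cyclic AMP element (TGACGTCA), a STAT element (TTCNNNGAA), an NF-kB element or a C/EBP element (TTGCNNAAT), and no marked match overlaps another.
Il6 (chr5:30012864-30013113, plus strand): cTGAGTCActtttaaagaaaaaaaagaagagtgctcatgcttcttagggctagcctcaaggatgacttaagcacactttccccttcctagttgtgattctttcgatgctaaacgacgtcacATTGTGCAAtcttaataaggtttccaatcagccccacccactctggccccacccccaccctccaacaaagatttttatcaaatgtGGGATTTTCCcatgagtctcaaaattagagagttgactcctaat
Il11, upstream start (chr7:4782858-4783107, minus strand): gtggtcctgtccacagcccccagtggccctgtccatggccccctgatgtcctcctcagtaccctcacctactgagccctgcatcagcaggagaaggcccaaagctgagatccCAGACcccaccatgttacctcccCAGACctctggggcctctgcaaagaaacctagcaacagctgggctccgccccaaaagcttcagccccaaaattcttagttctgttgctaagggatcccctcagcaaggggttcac
Il11, downstream start (chr7:4778142-4778391, minus strand): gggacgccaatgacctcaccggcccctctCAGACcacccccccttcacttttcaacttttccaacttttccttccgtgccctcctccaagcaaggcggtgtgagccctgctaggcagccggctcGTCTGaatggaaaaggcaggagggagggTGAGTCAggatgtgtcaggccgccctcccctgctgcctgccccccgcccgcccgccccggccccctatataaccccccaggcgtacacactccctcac
Lif (chr11:4257318-4257567, plus strand): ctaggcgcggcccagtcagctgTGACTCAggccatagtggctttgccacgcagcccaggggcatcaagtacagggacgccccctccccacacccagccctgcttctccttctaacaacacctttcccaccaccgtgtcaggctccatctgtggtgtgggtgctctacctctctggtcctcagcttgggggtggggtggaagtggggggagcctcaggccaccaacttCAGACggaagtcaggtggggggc
Il6ra (chr3:89913197-89913446, minus strand): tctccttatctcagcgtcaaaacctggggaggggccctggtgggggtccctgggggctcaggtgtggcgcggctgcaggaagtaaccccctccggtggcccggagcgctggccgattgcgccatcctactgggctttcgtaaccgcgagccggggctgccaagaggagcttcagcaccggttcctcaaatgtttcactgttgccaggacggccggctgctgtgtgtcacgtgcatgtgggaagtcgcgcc
Socs3 (chr11:117969367-117969616, minus strand): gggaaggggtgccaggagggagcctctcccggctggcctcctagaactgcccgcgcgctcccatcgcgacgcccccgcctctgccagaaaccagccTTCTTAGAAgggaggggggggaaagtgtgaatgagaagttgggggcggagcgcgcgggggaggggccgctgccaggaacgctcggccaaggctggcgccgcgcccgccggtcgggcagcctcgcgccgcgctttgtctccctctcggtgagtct

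The Il6 window holds an AP-1 match starting 249 bases before the start, a C/EBP match (ATTGTGCAA) at 129 bases and an NF-kB match (GGGATTTTCC) at 44 bases. The window at the downstream Il11 start holds SMAD boxes at 221 and 126 bases and an AP-1 match at 98 bases, that at the upstream start SMAD boxes at 138 and 115 bases, and the Lif window an AP-1 match at 228 bases and a SMAD box at 23 bases. An AP-1 match is thus present at all 3 ligands that rose most, for Il11 at the downstream start alone, and 6.75% of the 32851 promoter windows of this length hold such a match. The 3 were picked by their rise in these data, and Clcf1 had no window to set beside them. The Socs3 window holds a STAT match (TTCTTAGAA) at 154 bases, as do 7.02% of all windows for this element. Shares for the other elements were 42.2% for the SMAD box, 2.11% for C/EBP, 1.55% for the cyclic AMP element and 0.356% for NF-kB. Among the receptor chains, 1 window of Il11ra1 and 1 of Lifr hold a SMAD box, and these letters do not occur in the windows of Il6ra, Il6st and Osmr. A match describes the sequence and is no evidence of binding in these cells.

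In ascending fibroblasts the receptor chains fell where the ligands rose, with the exception of Il11ra1. Il6ra, the receptor that confers the response to IL6 itself, read 30.7, 38.3 and 31.5 CPM in the ascending controls and 7.67, 6.53 and 7.45 CPM with TGFβ. In descending fibroblasts it read 34.8, 33.7 and 31.1 CPM in control and 5.56, 7.26 and 5.81 CPM with TGFβ. The 6 TGFβ libraries lay far below the 6 controls, and the descending control replicate 3 sat beside its group. Il6ra fell 4.66-fold in ascending fibroblasts, -2.22 on the log2 scale (SE 0.10, adjusted p = 7.69e-12, edgeR's quasi-likelihood test), and 5.37-fold in descending fibroblasts, -2.42 (SE 0.17, adjusted p = 0.0016, edgeR's quasi-likelihood test), where the value without replicate 3 was -2.46 (SE 0.11). Il6ra is also expressed by macrophages, and the summed CPM of 7 macrophage markers moved with these groups. The sums were 54.6, 357 and 58.1 in the ascending controls, 42.7, 38.1 and 29.8 in the ascending TGFβ libraries, 39.9, 47.3 and 25.5 in the descending controls and 19.6, 27.1 and 14.0 in the descending TGFβ libraries, and each of the 7 markers had a read in at least 1 library. The ascending control replicate 2 had both the highest marker sum and the highest Il6ra, and without it the ascending log2 fold change of Il6ra was -2.11.

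Lifr, the chain that pairs with gp130 for LIF, stood at 13.6, 14.0 and 14.5 CPM in the ascending controls and 6.06, 5.77 and 6.57 CPM with TGFβ. The descending libraries read 14.2, 14.96 and 9.10 CPM in control and 3.88, 4.12 and 4.54 CPM with TGFβ. Groups did not overlap at either site, and the descending TGFβ libraries held the lowest Lifr of the series. It fell 2.29-fold in ascending fibroblasts, -1.20 on the log2 scale (SE 0.11, adjusted p = 4.97e-08, edgeR's quasi-likelihood test). In descending fibroblasts it fell 3.07-fold, -1.62 (SE 0.25, adjusted p = 0.0167, edgeR's quasi-likelihood test), and without replicate 3 the log2 fold change was -1.80 (SE 0.13). Leaving out any other library of this comparison ended the call, with values between -1.67 and -1.48. Lifr and Lif, receptor and ligand, thus moved in opposite directions with TGFβ at the ascending site.

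Il6st, which encodes gp130, was the most abundant of the 10 transcripts, also per kilobase. Its levels were 990.3, 1051 and 995 CPM in the ascending controls and 638, 636 and 605 CPM with TGFβ, against 530.4, 552 and 546 CPM in the descending controls and 296, 327 and 310.4 CPM with TGFβ. No group overlapped another, and every ascending library, treated or not, stood above every descending library. With TGFβ it fell 1.62-fold in ascending fibroblasts, -0.70 on the log2 scale (SE 0.03, adjusted p = 9.00e-12, edgeR's quasi-likelihood test), and 1.75-fold in descending fibroblasts, -0.81 (SE 0.10, adjusted p = 0.0089, edgeR's quasi-likelihood test). The call in descending fibroblasts held without replicate 3, where the value was -0.80, and was lost when any of 4 other libraries was left out, with values between -0.84 and -0.76.

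Osmr, the oncostatin M receptor chain, was highest in the aberrant library. It read 117, 124 and 123.5 CPM in the ascending controls and 99.1, 94.8 and 90.6 CPM with TGFβ. The descending controls read 105, 109 and 264 CPM and the descending TGFβ libraries 74.9, 77.0 and 75.2 CPM. Controls exceeded TGFβ libraries at both sites without overlap, and replicate 3 of the descending controls held the highest level of the series. Osmr fell 1.29-fold in ascending fibroblasts, -0.36 on the log2 scale (SE 0.04, adjusted p = 2.11e-06, edgeR's quasi-likelihood test). The descending value was -1.08 (SE 0.39, adjusted p = 0.163, edgeR's quasi-likelihood test) with replicate 3 and -0.50 (SE 0.05) without it, where it passed.

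Il11ra1, the specific receptor of IL11, was the only receptor chain that was not lower with TGFβ at either site. It read 92.6, 94.0 and 92.1 CPM in the ascending controls and 108, 111 and 99.7 CPM with TGFβ, and 70.7, 75.2 and 25.4 CPM in the descending controls and 75.6, 79.1 and 80.4 CPM with TGFβ. The TGFβ libraries lay above the controls at both sites, by a narrow margin in descending fibroblasts. The ascending rise was 1.14-fold, 0.19 on the log2 scale (SE 0.04, adjusted p = 0.0019, edgeR's quasi-likelihood test). In descending fibroblasts the value was 0.45 (95% interval -0.51 to 1.41, adjusted p = 0.541, edgeR's quasi-likelihood test), and without replicate 3 it was 0.11 (95% interval -0.01 to 0.23), which did not pass either. Its count is less certain than the others, as 46.3% of the 50-base stretches of its exons occur in other genes, mainly Gm13305. The gene also overlaps Galt on the same strand.

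Socs3, the feedback inhibitor, did not follow the ligands upwards. It read 10.99, 10.8 and 8.96 CPM in the ascending controls and 6.58, 5.11 and 6.18 CPM with TGFβ, without overlap. The descending controls read 8.17, 7.37 and 2.90 CPM and the descending TGFβ libraries 4.90, 4.66 and 4.54 CPM, so that replicate 3 lay below the treated group and replicates 1 and 2 above it. Socs3 fell 1.73-fold in ascending fibroblasts, -0.79 on the log2 scale (SE 0.14, adjusted p = 0.000107, edgeR's quasi-likelihood test). The descending value was -0.40 (SE 0.41, adjusted p = 0.604, edgeR's quasi-likelihood test) with replicate 3 and -0.72 (SE 0.15) without it, where it passed.

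**Figure D2:**
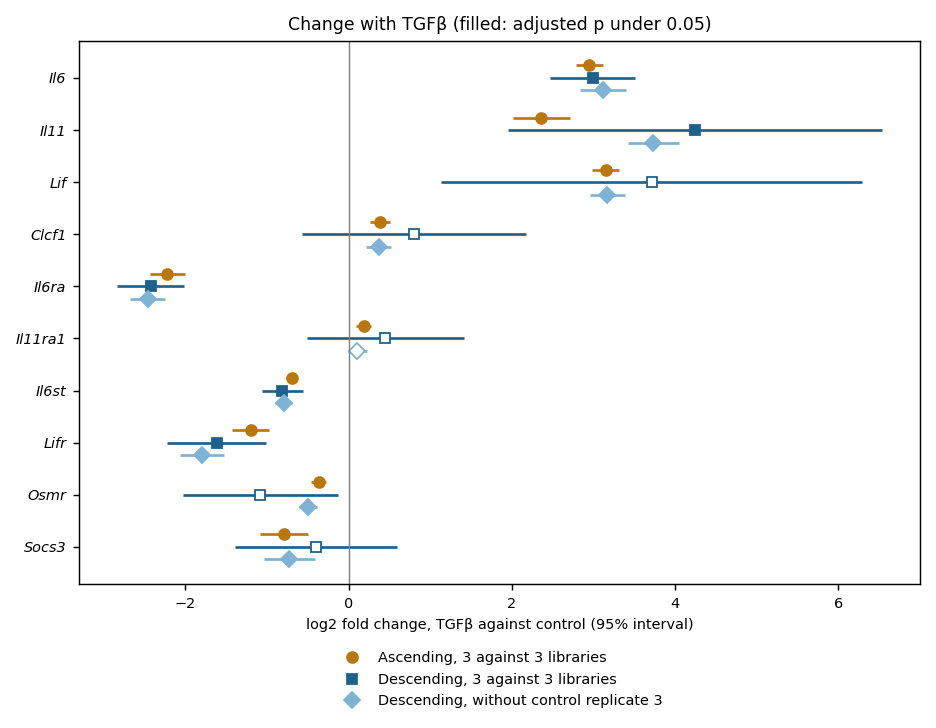
Log2 fold change with TGFβ (horizontal axis, with the 95% interval) for each gene, in ascending fibroblasts, in descending fibroblasts and in descending fibroblasts without control replicate 3, with filled points for an adjusted p under 0.05. Il6, Il11 and Lif lie to the right at 2.36 or above in all 3 fits, Il6ra lies near -2.22 to -2.46, and the descending intervals narrow when replicate 3 is left out.

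The receptor chains lie on chromosomes 3 (Il6ra, chr3:89864059-89913196, minus strand), 4 (Il11ra1, chr4:41699989-41769474, plus strand), 13 (Il6st, chr13:112464070-112510086, plus strand) and 15, where Osmr (chr15:6813577-6874969, minus strand) and Lifr (chr15:7090614-7197489, plus strand) are neighbours 215644 bases apart. Socs3 is on chromosome 11 (chr11:117966079-117970047, minus strand). These coordinates are from GRCm38.

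To compare levels between genes, CPM were divided by exon length in kilobases. In ascending controls the order was Il6st at 91.2 CPM per kb, Il11ra1 at 20.8, Osmr at 10.0, Clcf1 at 7.67, Il6ra at 3.88, Socs3 at 3.54, Il6 at 1.93, Lif at 1.53, Lifr at 1.30 and Il11 at 0.835 (means of 3). Neighbours in that order did not overlap in their libraries except Il6ra and Socs3. With TGFβ, Il6 at 14.99 and Lif at 13.6 CPM per kb moved to the places after Il6st (56.5) and Il11ra1 (23.7), ahead of Clcf1 (10.1), Osmr (7.83) and Il11 (4.33). Socs3 (2.06), Il6ra (0.835) and Lifr (0.569) then closed the order, and no neighbours overlapped.

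The descending order with TGFβ began likewise with Il6st at 28.0 and Il11ra1 at 17.5 CPM per kb. Il6 (10.5), Il11 (9.98) and Clcf1 (9.94) followed with overlapping libraries, then Lif (8.95), Osmr (6.25), Socs3 (1.63), Il6ra (0.719) and Lifr (0.388). Il11 was thus level with Il6 per kb at the descending site, whereas at the ascending site it lay well under it. In the descending controls without replicate 3 the same 3 ligands were among the last 4 genes, Il6 at 1.20, Lif at 0.992 and Il11 at 0.751 CPM per kb, with Lifr at 1.35 overlapping Il6.

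**Figure D3:**
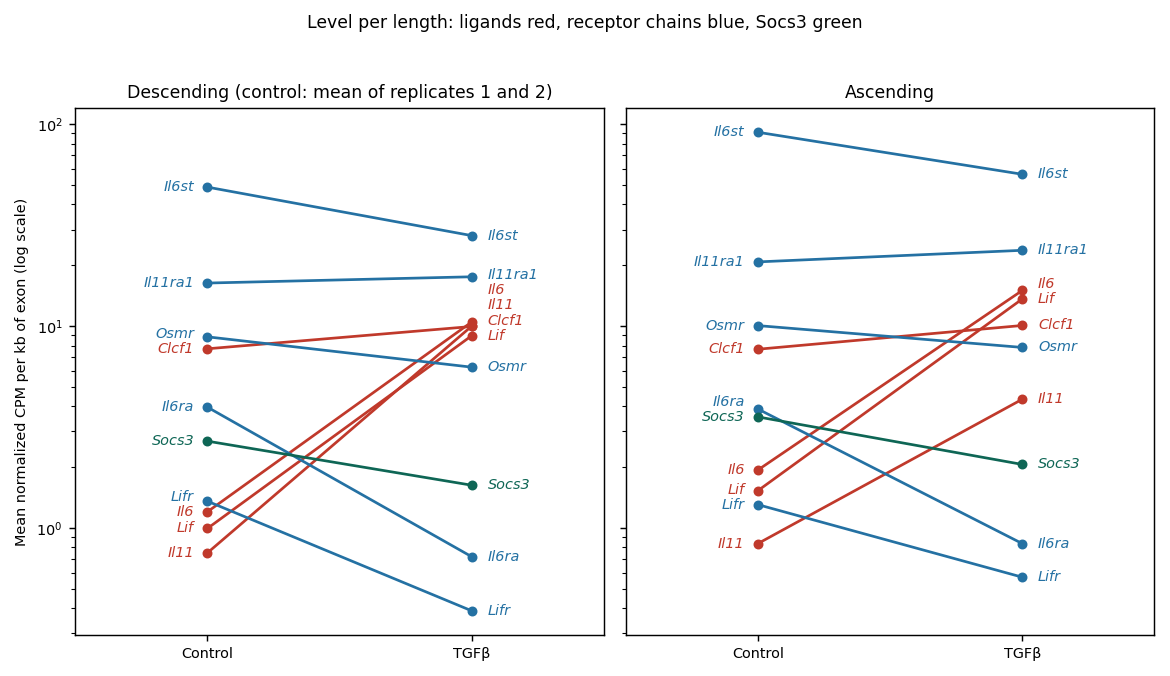
Mean normalized CPM per kb of exon (log axis) in control and TGFβ libraries of each site (descending control without replicate 3), with ligands in red, receptor chains in blue and Socs3 in green. The lines of Il6, Lif and Il11 cross those of Il6ra and Socs3 between control and TGFβ at both sites, while Il6st stays highest at 28.0 to 91.2.

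Fibroblasts of the ascending and descending aorta differ in developmental origin, and the design compared the sites within each treatment. In control cultures only Il6st passed, 1.87-fold higher in ascending fibroblasts, 0.90 on the log2 scale (SE 0.09, adjusted p = 0.0098, edgeR's quasi-likelihood test), 1 of the 10 genes against 2.65% of all genes. That call was lost when any other library than the descending control replicate 3 was left out, with values between 0.88 and 0.92. Without the descending control replicate 3, 6 of the 10 passed against 31.6% of all genes (16.4% higher), each higher in ascending fibroblasts: Il6 (0.70), Lif (0.63), Il11ra1 (0.36), Il6st (0.92), Osmr (0.20) and Socs3 (0.41). For Osmr the direction depended on that library, since the log2 fold change was -0.39 with it and 0.20 without it. Il11, Clcf1, Il6ra and Lifr did not pass in either case, and without replicate 3 the intervals of Clcf1 (-0.16 to 0.16), Il6ra (-0.21 to 0.17) and Lifr (-0.24 to 0.16) were narrow. That of Il11 was wider, from -0.41 to 0.75. Other cell type markers differed between the control groups too. Of 3 mesothelial markers tested without replicate 3, Upk3b (4.73 on the log2 scale) and Msln (3.77) were higher in ascending fibroblasts and Krt19 lower (-1.62). Of the 2 tested with that library, Upk3b was higher by 5.22 and Krt19, at -1.43, did not pass. Without replicate 3, 4 of 6 macrophage markers tested were also higher, among them C1qa (2.02) and Lyz2 (1.95), where with all libraries 0 of 6 passed edgeR's quasi-likelihood test (2 at an unadjusted p under 0.05, and 0 of 7 by DESeq2). The ascending control replicate 2 carried much of that difference, with a macrophage marker sum of 357 CPM against 54.6 and 58.1 in the other ascending and 39.9 and 47.3 in the descending control libraries 1 and 2. With this library left out as well, a fit chosen after seeing the data, 2 of the 6 macrophage markers were higher, Csf1r (0.66) and Lyz2 (0.34), and C1qa, at 0.53, did not pass. In that fit 5 of the 10 IL6 family genes passed against 30.8% of all genes, and Socs3 did not (0.37, adjusted p = 0.0553, edgeR's quasi-likelihood test). Of the 5 smooth muscle markers 3 were lower without replicate 3, among them Cnn1 (-1.58) and Myh11 (-0.86), and 2 were higher. The part of the smooth muscle and mesothelial markers in the result was not tested.

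Under TGFβ, where the aberrant library takes no part, 7 of the 10 genes differed between the sites against 36.3% of all genes. The signal chain Il6st was 2.02-fold higher in ascending fibroblasts, 1.01 on the log2 scale (SE 0.04, adjusted p = 2.1e-18, edgeR's quasi-likelihood test). Lif was higher there by 0.61 (SE 0.06), Lifr by 0.55 (SE 0.15), Il6 by 0.52 (SE 0.07), Il11ra1 by 0.44 (SE 0.05) and Osmr by 0.33 (SE 0.05) on the log2 scale. Il11 went the other way and was 2.29-fold lower in ascending fibroblasts, -1.20 on the log2 scale (SE 0.10, adjusted p = 2.28e-11, edgeR's quasi-likelihood test). Il11 thus differed in direction from its own receptor, which was higher in ascending fibroblasts. Clcf1 (0.02, 95% interval -0.10 to 0.14), Il6ra (0.22, -0.06 to 0.51) and Socs3 (0.34, 0.03 to 0.65, adjusted p = 0.0795) did not pass the test. Markers of other cell types also differed between these groups, and their part in the result was not tested. In ascending fibroblasts 3 of 6 macrophage markers tested were higher (0 of 7 by DESeq2), among them Ptprc (1.53) and Lyz2 (1.05), 4 of 5 smooth muscle markers were lower, among them Myh11 (-2.25) and Cnn1 (-1.22), and of the mesothelial markers Upk3b was higher by 4.49 and Krt19 lower (-1.78). In a single fit of all 12 libraries, in which the spread of the descending control group enters and 7.56% of all genes were called, Il6 and Il6st alone passed.

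**Figure D4:**
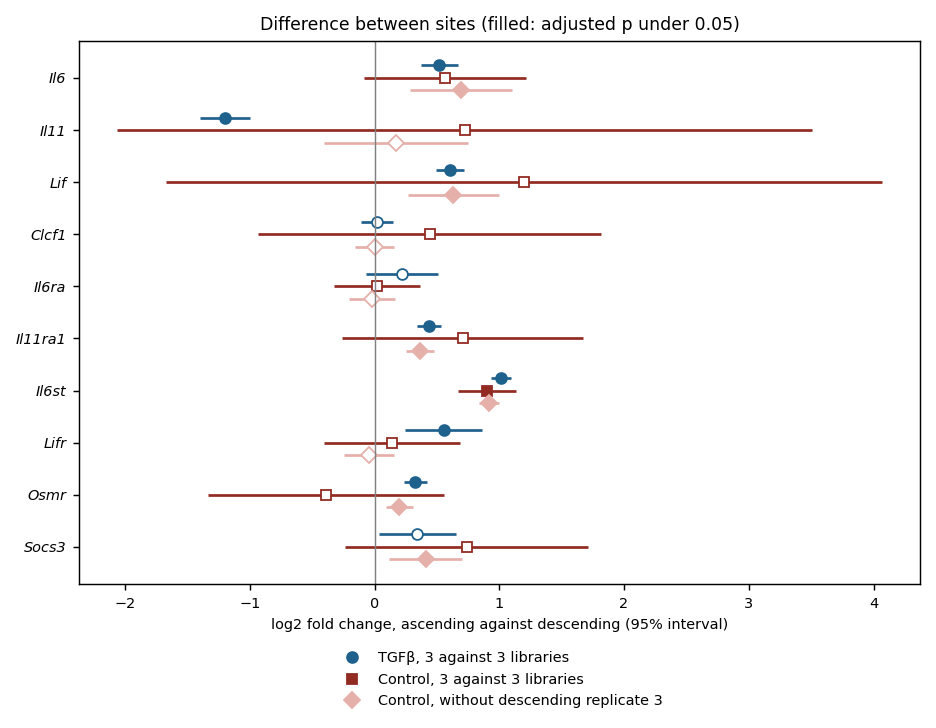
Log2 fold change of ascending against descending fibroblasts (horizontal axis, with the 95% interval) under TGFβ, in control, and in control without descending replicate 3, with filled points for an adjusted p under 0.05. Il6st lies near 1 in all 3 fits, at 1.01, 0.90 and 0.92, Il11 under TGFβ lies at -1.20, and Osmr changes side with replicate 3.

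Whether the response to TGFβ differed between the sites was tested as an interaction over the 4 groups. In the 12 libraries 0 of the 10 genes passed edgeR's quasi-likelihood test, against 0.806% of all genes. At an unadjusted p under 0.05, 1 of the 10 genes (Il11) remained, and DESeq2's Wald test also called 0 of the 10. The interaction of Il11 was -1.86 on the log2 scale (SE 0.81, 95% interval -3.65 to -0.06, adjusted p = 0.482, edgeR's quasi-likelihood test), the negative sign standing for a smaller rise in ascending fibroblasts. The intervals of Il6 (-0.48 to 0.39), Il6ra (-0.23 to 0.64) and Il6st (-0.10 to 0.32) were the narrowest of the 10.

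Without the descending control replicate 3, Il11 and Lifr passed the interaction test, 2 of the 10 against 13.5% of all genes (6.07% more positive and 7.4% more negative). For Il11 the value was -1.37 (SE 0.23, 95% interval -1.83 to -0.90), so that its rise was 2.58-fold smaller in ascending than in descending fibroblasts. For Lifr it was 0.60 (SE 0.16, 95% interval 0.27 to 0.94), a smaller fall in ascending fibroblasts. The other 8 genes did not pass, with Il6 at -0.16 (95% interval -0.52 to 0.19), Lif at -0.02 (-0.30 to 0.27) and Socs3 at -0.06 (-0.47 to 0.34).

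For each of the 10 genes the gene with the most similar profile was sought among 14627 genes, by Pearson's r of log2 CPM over the 12 libraries. These r describe 12 libraries that share 4 groups and 1 aberrant library. They were Ltbp1 for Il6 (r = 0.993), Pxdc1 for Lif (0.997), Slc3a2 for Il11 (0.995), Puf60 for Clcf1 (0.997), Prkar1a for Il6ra (0.994), Evc for Lifr (0.990), Cd34 for Il6st (0.987), Sp100 for Osmr (0.994), Plpp2 for Il11ra1 (0.994) and Crebl2 for Socs3 (0.982). No 2 of the 10 genes had the same partner. Over the 11 libraries without the descending control replicate 3 the partners were others, and Il6 and Lif then shared Ctps (0.997 and 0.998). Ltbp1 encodes a latent TGFβ binding protein, Slc3a2 an amino acid transporter chain and Cd34 a surface glycoprotein of adventitial progenitor cells, and Ctps a CTP synthase.

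Most other ligands of the family were scarce. Of 8, Osm, Cntf, Il27, Ebi3 and Il31 had at most 3 reads in every library, and Ctf2 was too low to be tested. In ascending fibroblasts Ctf1, cardiotrophin 1, rose with TGFβ by 1.19 on the log2 scale (SE 0.30), from a mean of 1.00 CPM to 2.28 CPM. In descending fibroblasts Ctf1 did not pass, at 0.22 (SE 0.34) with replicate 3 and 0.07 (SE 0.22) without it. Of 4 other receptor chains only Il27ra was tested, which fell by 0.60 on the log2 scale (SE 0.12) in ascending fibroblasts. Oncostatin M, the main ligand of OSMR, was therefore at or under the floor of 3 reads in cultures where Osmr was well measured.

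Of 11 JAK-STAT transducers, 2 rose and 6 fell with TGFβ in ascending fibroblasts, where 55.8% of all genes were called, and their median log2 fold change was -0.22 against 0.00 over all genes tested. Stat5a fell by 0.61 (SE 0.08) and Jak1, a kinase bound to gp130, by 0.59 (SE 0.04), while Sos1 rose by 0.21 and Ptpn11 by 0.13. In descending fibroblasts 3 of 11 fell against 8.07% of all genes called, Stat5a (-1.04, SE 0.17) and Jak1 (-0.97, SE 0.15) among them, with a list median of -0.26 against 0.02, and without replicate 3, 6 of 11 fell against 52.9% called. Stat3, the main transducer of gp130, did not pass at either site, at -0.06 (SE 0.04) and -0.09 (SE 0.10).

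Of 13 feedback and shedding genes, 2 rose and 5 fell with TGFβ in ascending fibroblasts, with a median of -0.12, a share called near the 55.8% of all genes. Socs2, a feedback inhibitor of growth hormone signalling, fell by 1.58 (SE 0.10) there and by 1.43 (SE 0.31) in descending fibroblasts. Also in ascending fibroblasts, Pias1 fell by 0.37 (SE 0.07), while Socs6 rose by 0.30 and Adam10, a sheddase of IL6RA, by 0.19. Ptpn6 fell by 1.47 (SE 0.48) there, from a low and uneven level. It read 0.876 to 3.84 CPM in the ascending controls and 0.39 to 0.993 CPM with TGFβ. The ascending control replicate 2 had a macrophage marker sum of 357 CPM, and the part of such cells in the fall of Ptpn6 was not tested. In descending fibroblasts 2 of 13 fell against 8.07% of all genes called, Socs2 and Adam17, with a median of -0.07. Without replicate 3, 2 rose and 6 fell against 52.9% called.

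Among 20 genes listed as STAT3 targets, 17 were tested in ascending fibroblasts, of which 6 rose and 6 fell with TGFβ against 55.8% of all genes called, with a median of -0.09. Myc rose by 1.42 (SE 0.05), Junb by 1.23 (SE 0.06) and Timp1 by 0.97 (SE 0.03), whereas Il4ra fell by 1.13 (SE 0.03), Cebpb by 0.99 (SE 0.05) and Cebpd by 0.92 (SE 0.04). In descending fibroblasts, where 8.07% of all genes were called, 3 of 18 rose, Myc (1.37, SE 0.27), Timp1 (1.12, SE 0.11) and Vegfa (0.75, SE 0.12), and Il4ra (-1.80, SE 0.28) and Bcl6 (-0.89, SE 0.18) fell, with a median of -0.05, and without replicate 3, 6 rose and 7 fell against 52.9% called. Socs3, counted among the 10 genes, is another known target. Many of these genes answer to other pathways too. As a check of the treatment, 6 of 6 known TGFβ response genes rose in ascending fibroblasts, among them Acta2 by 1.72 (SE 0.03), and 4 of 6 in descending fibroblasts (6 of 6 without replicate 3), among them Acta2 by 1.76 (SE 0.09).

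Among other cell types, the macrophage markers alone gave a list whose tested genes all fell with TGFβ at the ascending site. There 6 of 6 fell against 27.6% of all genes called lower, with a median log2 fold change of -1.97. Without the ascending control replicate 2 that no longer held, since 5 of 6 fell, and the median was -0.59. In descending fibroblasts 0 of 5 passed edgeR's quasi-likelihood test against 8.07% of all genes, with a median of -1.09 (2 at an unadjusted p under 0.05, and 0 of 7 by DESeq2). Without the descending control replicate 3, 3 of 6 fell against 26.3% of all genes called lower and 52.9% called in either direction. Their sums varied between 14.0 and 357 CPM, against at least 14317 CPM for the fibroblast markers, and their part in the IL6 family results was not tested. Of 5 smooth muscle markers, 3 rose and 2 fell with TGFβ in ascending fibroblasts, where 55.8% of all genes were called. Among 3 mesothelial markers tested there, Upk3b alone passed, at -0.89. The part of these markers was not tested either.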

How the data were processed

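RNA of 12 cultures of mouse aortic adventitial fibroblasts was sequenced, 3 in each of 4 groups given by the labels. The authors deposited raw read counts per gene symbol, made with featureCounts after alignment to mm10 with STAR per the submitters' processing notes. Versions, strand setting and the treatment of reads with several matches are not given in the sources used here. The 10 genes and all gene lists were chosen with earlier results of these data known.

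Counts were tested with edgeR 4.0.16 in R 4.3.3 (TMM normalization, filterByExpr at its default of 10 reads and a total of 15, quasi-likelihood F-test), in fits of the 6 libraries compared, and with all 12 libraries for the interaction. P-values were adjusted by Benjamini-Hochberg over all genes tested, and an adjusted p under 0.05 was called. Levels are CPM scaled by TMM factors over the 12 libraries, and log2 CPM used a prior count of 2. The SE is the log2 fold change over the square root of F. The fits were also run on simulated data with 200 changed genes, where edgeR recovered 97.5% to 100% of them. Of its calls there, 2.45% to 8.26% were false. All simulated libraries had the same spread, so this run cannot show how the fits behave with a library like the descending control replicate 3.

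Alternatives were DESeq2 1.42.0 (Wald test), its size factors in edgeR, no filter, the replicate number as a block, all 12 libraries in a single fit, 11 libraries in a single fit, and the omission of each single library and, chosen after seeing the data, of a pair of control libraries. Gene models were GENCODE on GRCm38, which held 53753 of the 54352 symbols (98.9%). From each list, up to 3 called genes per direction with the largest change were named. Some genes of these lists are not reported here.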

Additional observations from a re-analysis of the deposited data

Results flagged for a closer look

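For 2 of the 10 genes the response to TGFβ differed between ascending and descending fibroblasts by the interaction test, and only in the 11 libraries without the descending control replicate 3, where 13.5% of all genes passed it. For Il11 the interaction was -1.37 on the log2 scale (SE 0.23, adjusted p = 0.000109, edgeR's quasi-likelihood test), with a log2 rise of 2.36 in ascending and 3.73 in descending fibroblasts. For Lifr it was 0.60 (SE 0.16, adjusted p = 0.0121, edgeR's quasi-likelihood test), with a log2 fold change of -1.20 in ascending and -1.80 in descending fibroblasts. With all 12 libraries the values were -1.86 and 0.42 and neither passed, and over the 16 alternatives the adjusted p of Il11 ran from 0.000109 to 0.763 and that of Lifr from 0.0121 to 0.820.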

How the results depend on the processing

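In ascending fibroblasts with TGFβ the 10 genes kept their direction and their call under 11 of the 12 alternatives. In 1 fit of all 12 libraries 2338 genes and 6 of the 10 passed. In descending fibroblasts with TGFβ no direction changed among the 10 genes, and DESeq2 called 2242 genes, the fit of all 12 libraries 3570 and that of 11 libraries 7704 genes with 9 of the 10, while leaving out single libraries gave 213 to 7576 genes and 2 to 9 of the 10. Between the sites in control, DESeq2 called 1034 genes, the fit of 12 libraries 1545 genes with 2 of the 10, that of 11 libraries 4953 genes with 6 of the 10, and single libraries left out gave 33 to 4631 genes and 0 to 6 of the 10. In the 11-library fit Clcf1 (-0.0098), Il6ra (-0.032), Lifr (-0.056) and Osmr (0.19) changed sign, and with single libraries left out the ranges were -0.086 to 0.080 for Il6ra, -0.044 to 0.27 for Lifr and -0.61 to 0.20 for Osmr. With both the descending control replicate 3 and the ascending control replicate 2 left out, a setting chosen after seeing the data, 4453 genes and 5 of the 10 passed, and Clcf1 (-0.039), Il6ra (-0.13), Lifr (-0.047) and Osmr (0.18) changed sign. Between the sites under TGFβ the fit of 12 libraries called 1106 genes and 2 of the 10, and Clcf1 ranged from -0.017 to 0.062. For the interaction DESeq2 called 419 genes, no filter 56, and single libraries left out 25 to 2022 genes and 0 to 2 of the 10, with ranges of -0.16 to 0.081 for Il6, -0.75 to 0.024 for Clcf1 and -0.51 to 0.083 for Il11ra1. The cause of these differences was not tested.

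Deviations of same-numbered libraries from their group means had correlations of -0.026 to 0.065. Such low values cannot show whether equal numbers mark paired cultures, and the labels do not say. With the replicate number as a block, 95 genes and 2 of the 10 passed in descending fibroblasts with TGFβ, 0 genes and 0 of the 10 between the sites in control (1 of the 10 at an unadjusted p under 0.05) and 50 genes for the interaction. In control, each of 3 libraries matched its own number best. DESeq2's size factors moved none of the 40 levels per kb by more than 1 SD. Depth limits Il11, Il6 and Lif in control, where the reads were at most 44, 103 and 158.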

Other observations

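Lcn2, an iron-binding defence protein known as a STAT3 target, was far lower in ascending than in descending fibroblasts. Its mean was 2.06 CPM ± 0.40 (SD, n = 3) in descending controls and 3.43 ± 1.85 with TGFβ, against 0.173 ± 0.027 in ascending controls, and it was at or under the floor of 3 reads in every ascending TGFβ library. The difference between the sites passed edgeR's quasi-likelihood test in control (adjusted p = 0.024, and 7.67e-06 without the descending control replicate 3) and under TGFβ. With TGFβ, 8 of 18 STAT3 targets were higher in ascending fibroblasts against 18.1% of all genes, led by Bcl3 (1.298, SE 0.22), Bcl6 (0.87, SE 0.13) and Cebpd (0.85, SE 0.05), and 5 were lower against 18.2%, among them Vegfa (-0.999, SE 0.04) and Nfil3 (-0.58, SE 0.13).

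Adam17, the protease that sheds IL6RA from the cell surface, was the only gene of the feedback and shedding list that passed the interaction test in all 12 libraries, at 0.71 on the log2 scale (SE 0.13, adjusted p = 0.034, edgeR's quasi-likelihood test), and at 0.60 (SE 0.07) without the descending control replicate 3. Its mean went from 102 CPM ± 12.4 in descending controls to 54.4 ± 2.15 with TGFβ, whereas the ascending controls read 64.2 ± 1.27 and the ascending TGFβ libraries 55.8 ± 1.45 (each SD with n = 3). Il4ra, the IL4 receptor chain, had an interaction of 0.66 (SE 0.29), which did not pass in all 12 libraries, and of 0.92 (SE 0.06), which passed without that replicate. Osm lies 16530 bases from Lif on chromosome 11 and had at most 1 read in any library, while Lif reached 62.8 CPM.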
